A study of Arabidopsis thaliana with 8 samples.

Results

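The autophagy genes described here are the 8 probe sets that the array annotation lists with 1 gene and with a symbol of ATG followed by a number, out of 22746 probe sets tested and 13513 listed with 1 gene. Each of the 8 stands for a different gene. Of these, 7 encode ATG8 proteins, ATG8B (AT4G04620), ATG8C (AT1G62040), ATG8D (AT2G05630), ATG8E (AT2G45170), ATG8F (AT4G16520), ATG8G (AT3G60640) and ATG8H (AT3G06420), and the remaining gene is ATG3 (AT5G61500). None of the 8 identifiers carries the suffix that marks a probe set shared by related transcripts. They were read in 3 cell populations of wild type Columbia roots of Arabidopsis thaliana from seedlings 6 days old: xylem in differentiation (n = 3 arrays), sieve cells of the phloem together with companion cells (n = 2) and cortex (n = 3). Each population came from a line with a cell type specific green fluorescent protein marker, whose fluorescent protoplasts were sorted. Which promoters drive the marker is not stated. The stated purpose was a root expression map to be set beside promoter fusions seen by imaging.

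Autophagy carries cytoplasm and organelles to the vacuole in a double-membraned vesicle, the autophagosome. ATG8 is a small ubiquitin-like protein that is cut by the protease ATG4, activated by ATG7 and joined to the lipid phosphatidylethanolamine by ATG3, an enzyme of the E2 conjugating type. Lipid-bound ATG8 sits on the growing membrane and binds the receptors that bring cargo. Plants have a family of ATG8 genes where yeast has a single gene, and ATG8H with ATG8I forms a branch whose proteins end at the glycine that other ATG8 proteins expose only after cutting. Phloem sieve elements lose the nucleus and vacuole as they mature, and tracheary elements of the xylem die and are cleared.

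The values are MAS5 intensities on a linear scale, with no detection calls. Differences are on the scale log2(intensity + 16), fitted with limma, with p-values adjusted by Benjamini-Hochberg over all probe sets tested and a threshold of 0.05. The median intensity of an array was 41.7 ± 0.85 in xylem (SD, n = 3), 72.0 ± 2.32 in phloem (n = 2) and 61.9 ± 0.53 in cortex (n = 3). Each population was checked against its markers. The 3 measured secondary wall markers of 10 listed had a summed intensity of 12799 to 14879 in xylem, 168 to 210 in phloem and 279.9 to 498 in cortex. The 3 measured phloem markers of 8 summed to 120.3 to 158 in xylem, 3683 to 4229 in phloem and 247 to 322 in cortex. The 5 cortex markers summed to 39.4 to 70.8 in xylem, 143 to 154 in phloem and 3848 to 4852 in cortex. AT1G09750 and AT1G62510 made up most of the cortex sum, while the listed marker CO2 was dim and averaged 12.1 in xylem, 25.7 in phloem and 16.2 in cortex. The 2 measured root hair markers of 4, from cells that were not sorted, summed to 18.1 to 53.0 in xylem, 270.2 to 399.8 in phloem and 94.2 to 133 in cortex. The 2 measured endodermis markers of 4 summed to 90.0 to 97.1 in xylem, 268 to 302 in phloem and 465 to 735 in cortex. The stress gene ZAT10 stood at 1426 to 2577 in xylem, 3815 to 3949 in phloem and 1797 to 2983 in cortex. The ratio of 3′ to 5′ signal of the GAPDH control probe sets was 6.60 ± 2.72 in xylem, 7.35 ± 2.04 in phloem and 2.28 ± 0.31 in cortex. That of ubiquitin ran the other way, 3.41 ± 0.27 in xylem, 3.80 ± 0.55 in phloem and 4.75 ± 0.18 in cortex. That of actin was 25.5 ± 11.3 in xylem, 22.2 ± 1.27 in phloem and 21.4 ± 3.24 in cortex. The part of other cell types, stress and RNA quality in the results below was not tested. Arrays of 1 population are labelled biological replicates, and their number limits the precision.

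ATG8D was high in both vascular populations and low in cortex. Its intensity was 1185, 1090 and 827 on the xylem arrays, 1078 and 982 on the phloem arrays, and 120, 94.2 and 115 on the cortex arrays. Xylem and phloem arrays overlapped, and every one of them stood above every cortex array. Against cortex, ATG8D was higher by 3.05 in xylem (SE 0.18; adjusted p = 1.90e-06) and by 3.06 in phloem (SE 0.20; adjusted p = 1.05e-05), or 8.31-fold and 8.36-fold on this scale. Between xylem and phloem the difference was -0.01 with a 95% interval from -0.46 to 0.44 (adjusted p = 0.977). In pools of sorted cells, a higher level per cell and a larger share of cells with the transcript cannot be told apart.

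ATG8C was likewise higher in both vascular populations than in cortex, with a smaller step. Its intensity was 709, 453 and 530 in xylem, 617 and 607 in phloem, and 242, 249 and 262 in cortex. The vascular arrays overlapped with each other and lay above all cortex arrays. The difference was 1.097 (SE 0.18; adjusted p = 0.000993) for xylem over cortex and 1.24 (SE 0.20; adjusted p = 0.00192) for phloem over cortex. Under spike-in scaling the xylem difference was 0.17 (adjusted p = 0.414) and the call was lost. Xylem and phloem differed by -0.14, with a 95% interval from -0.59 to 0.31 (adjusted p = 0.627).

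ATG8B was above all a phloem transcript. Its intensity was 91.4, 105 and 68.0 in xylem, 625 and 494 in phloem, and 36.8, 36.5 and 56.3 in cortex. No arrays of different populations overlapped, and the order was phloem, then xylem, then cortex. In phloem it was higher than in cortex by 3.29 (SE 0.25; adjusted p = 2.54e-05), or 9.77-fold on this scale. This size depends on the constant added to the intensity, since the cortex signals were dim. It was 3.68 with 1 added and 2.54 with 64 added. In xylem ATG8B was lower than in phloem by -2.47 (SE 0.25; adjusted p = 6.99e-05). The step from cortex to xylem was small and rested on dim signals: xylem was higher by 0.81 (SE 0.22; adjusted p = 0.0152), while the cortex arrays ranked ATG8B above only 40.6% to 48.3% of probe sets. That call was lost without cortex replicate 1 (adjusted p = 0.0515), without cortex replicate 2 (adjusted p = 0.0589) and under spike-in scaling (0.05; adjusted p = 0.870).

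**Figure D1:**
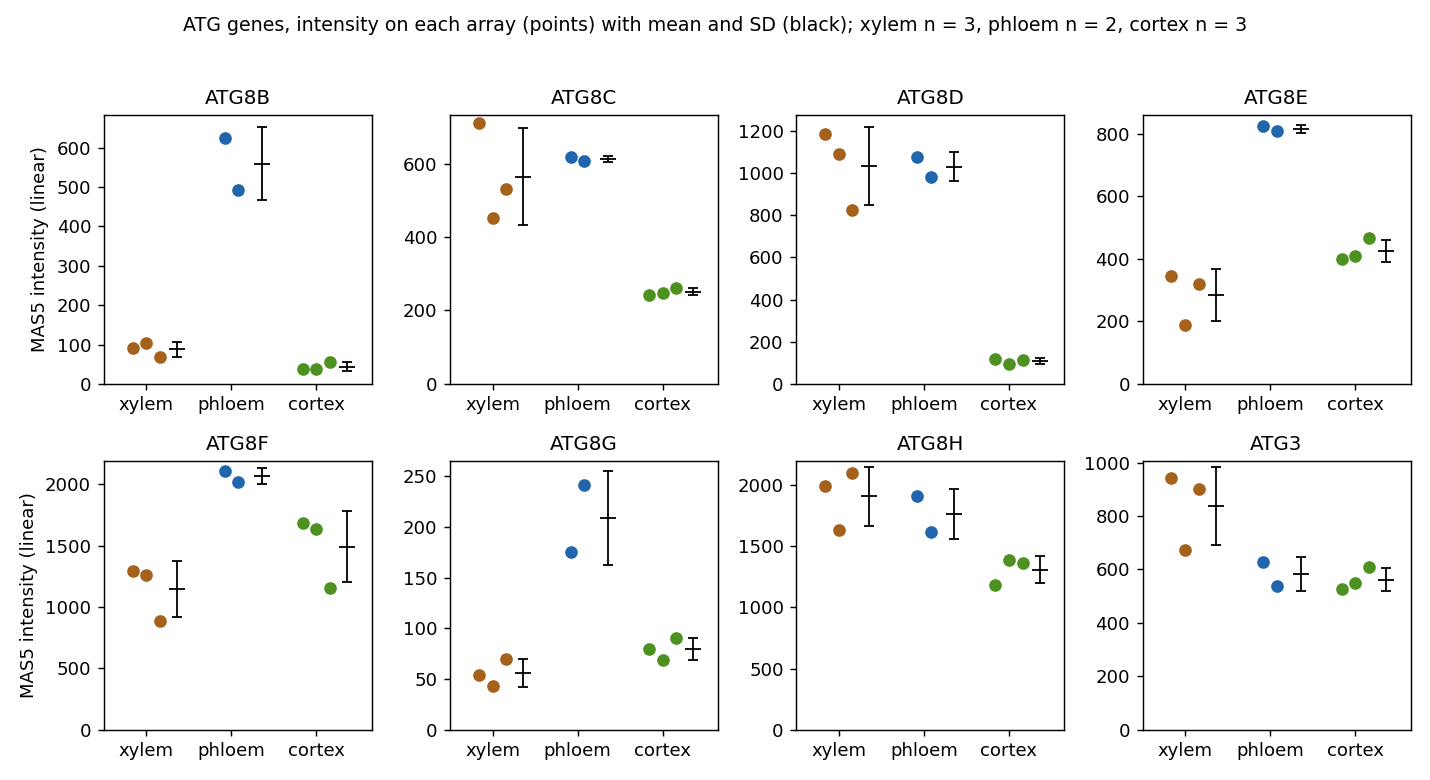
MAS5 intensity (linear axis from 0) of the 8 ATG genes on each array of xylem, phloem and cortex, with the mean and SD in black beside the points. ATG8D stands at 827 to 1185 on the xylem and phloem arrays and at 94.2 to 120 in cortex, while ATG8B reaches 494 and 625 only in phloem.

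The patterns of ATG8B and ATG8D were then set against each other within arrays, as ATG8B minus ATG8D on the log2(intensity + 16) scale, which shows unequal change and not which probe set is more abundant. This difference averaged -3.33 ± 0.14 in xylem (SD, n = 3), -0.87 ± 0.14 in phloem (n = 2) and -1.09 ± 0.26 in cortex (n = 3). The added 16 pulls the cortex value toward 0, since ATG8B was dim there and is not shown to exceed background. Every xylem array lay below every array of phloem and cortex. Exact two-sided permutation tests over arrays, which double the one-sided p, gave p = 0.1 for xylem against cortex and 0.2 for xylem against phloem. Each is the smallest p that this form of the test can give with these arrays. For phloem against cortex the exact two-sided permutation test gave p = 0.4.

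ATG8E, ATG8F and ATG8G were highest in phloem and had their lowest mean in xylem. The intensity of ATG8E was 346, 189 and 319 in xylem, 826 and 808 in phloem, and 401, 409.6 and 466 in cortex. The 3 populations did not overlap. ATG8E was lower in xylem than in phloem by -1.51 (SE 0.24; adjusted p = 0.00111) and higher in phloem than in cortex by 0.92 (SE 0.24; adjusted p = 0.0224). The difference between xylem and cortex, -0.59 (SE 0.22), did not pass (adjusted p = 0.0565). ATG8E was lower past the threshold under 3 alternatives, spike-in scaling among them (-1.52). Its call for phloem against cortex was lost without phloem replicate 1 (0.90) or 2 (0.93), at an adjusted p of 0.111 each, where the lone phloem array is taken to vary as the others do. It was also lost without cortex replicate 1 (0.88; adjusted p = 0.0636) or 2 (0.89; adjusted p = 0.0701). In these fits the difference stayed close to 0.92, while under spike-in scaling it was 0.32 (adjusted p = 0.316).

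ATG8G was dim, with intensities of 54.4, 43.1 and 70.0 in xylem, 176 and 241 in phloem, and 80.1, 68.7 and 90.3 in cortex. Both phloem arrays stood above all others, and xylem and cortex overlapped. It was lower in xylem than in phloem by -1.65 (SE 0.24; adjusted p = 0.000643) and higher in phloem than in cortex by 1.22 (SE 0.24; adjusted p = 0.00553). Without phloem replicate 2 the call against cortex was lost (1.01; adjusted p = 0.0691); that fit takes the lone phloem array to vary as the xylem and cortex arrays do. Xylem and cortex differed by -0.42, with a 95% interval from -0.92 to 0.07 (adjusted p = 0.153).

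ATG8F was bright everywhere. Its intensity was 1294, 1258 and 885 in xylem, 2112 and 2020 in phloem, and 1683, 1634 and 1157 in cortex. Phloem stood above the rest without overlap, and xylem and cortex overlapped. ATG8F was lower in xylem than in phloem by -0.86 (SE 0.23; adjusted p = 0.0156), a call lost under median centring (-0.25; adjusted p = 0.382), without phloem replicate 1 (adjusted p = 0.0852) and without phloem replicate 2 (adjusted p = 0.0704). Neither other difference passed: -0.38 (95% interval -0.85 to 0.10) for xylem against cortex and 0.49 (95% interval -0.04 to 1.01) for phloem against cortex.

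ATG8H and the conjugating enzyme ATG3 had their highest mean in xylem, with small steps. The intensity of ATG8H was 1991, 1637 and 2103 in xylem, 1912 and 1618 in phloem, and 1183, 1385 and 1362 in cortex. Vascular arrays overlapped with each other and lay above all cortex arrays. Xylem exceeded cortex in ATG8H by 0.53 (SE 0.16; adjusted p = 0.0248), but the difference turned to -0.43 under spike-in scaling (adjusted p = 0.0656). It differed by 0.42 (SE 0.18) between phloem and cortex and did not pass (adjusted p = 0.122). This difference passed under quantile normalization (0.63) and trimmed-mean scaling (0.55), and turned to -0.18 under spike-in scaling. Between xylem and phloem it differed by 0.11, with a 95% interval from -0.30 to 0.52.

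ATG3 had intensities of 941, 672 and 903 in xylem, 628 and 537 in phloem, and 526, 551 and 608 in cortex. Xylem stood above the rest without overlap, and phloem and cortex overlapped. Over cortex the xylem level was higher by 0.55 (SE 0.17; adjusted p = 0.0273), and this turned to -0.40 under spike-in scaling (adjusted p = 0.0863). The difference of 0.502 (SE 0.19) between xylem and phloem did not pass (adjusted p = 0.0617). It passed under 4 alternatives, and over all alternatives it ran from 0.15 to 1.11. The difference of 0.05 (SE 0.19) between phloem and cortex did not pass (adjusted p = 0.897). The xylem calls over cortex of ATG8H and ATG3 were both lost without cortex replicate 1, without cortex replicate 2, without xylem replicate 1 and without xylem replicate 3, and that of ATG8H also without cortex replicate 3. The adjusted p was 0.0523 to 0.0877 for ATG8H and 0.0817 to 0.0884 for ATG3 in these fits.

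**Figure D2:**
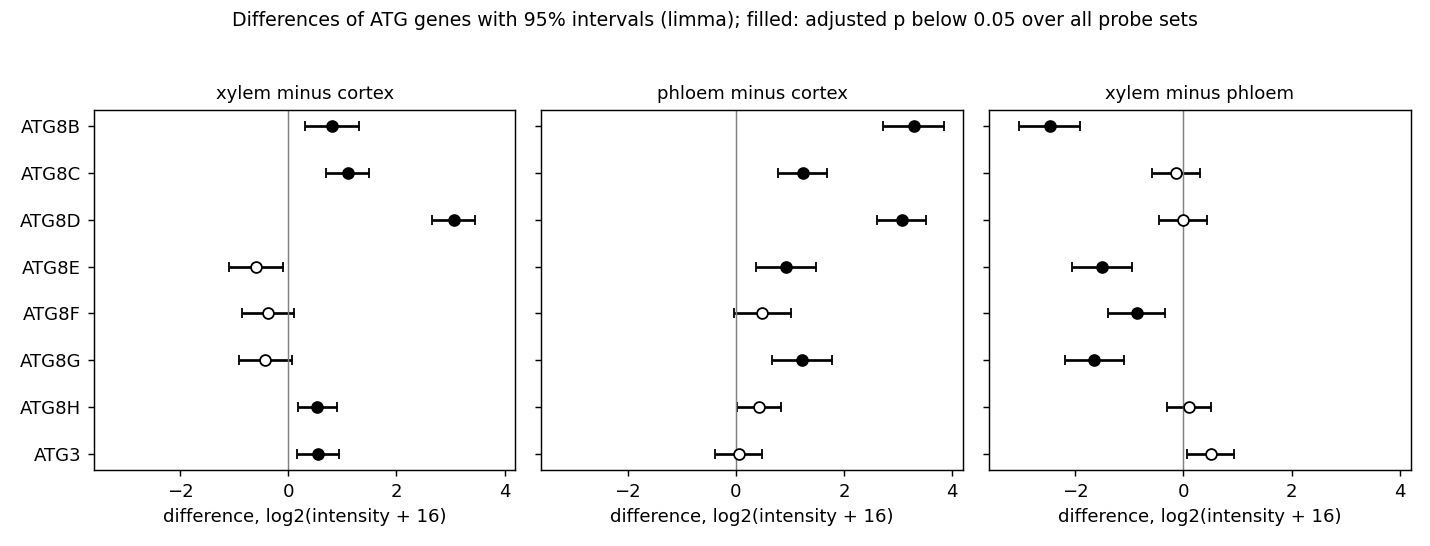
Differences of the 8 ATG genes between populations on the log2(intensity + 16) scale with 95% intervals from limma, where filled points have an adjusted p below 0.05 over all probe sets. The xylem minus cortex panel spans -0.59 (ATG8E) to 3.05 (ATG8D), and all points of the phloem minus cortex panel lie above 0, from 0.05 (ATG3) to 3.29 (ATG8B).

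Set against all probe sets, the genes compare as follows. Between xylem and cortex 5 of the 8 were higher in xylem (ATG8B, ATG8C, ATG8D, ATG8H and ATG3), where 13.5% of all probe sets were and 42.6% were called in either direction. None was lower with limma, where 29.1% of all probe sets were, and 1 was lower at an unadjusted p under 0.05. The median difference of the 8 was 0.54, against -0.14 over all probe sets. Without cortex replicate 1 or cortex replicate 2, 2 genes were higher, and without xylem replicate 3, 3 were. Without xylem replicate 1, 3 were higher and ATG8E was lower. Under spike-in scaling ATG8D alone was higher, and 3 (ATG8E, ATG8F and ATG8G) were lower.

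Between phloem and cortex 5 of the 8 were higher in phloem (ATG8B, ATG8C, ATG8D, ATG8E and ATG8G), where 12.2% of all probe sets were and 27.0% were called in either direction. None was lower with limma or at an unadjusted p under 0.05, where 14.8% of all probe sets were lower after adjustment. The median difference was 1.07, against -0.03 over all probe sets. Without phloem replicate 2 the differences of ATG8E and ATG8G over cortex were 0.93 and 1.01. Under spike-in scaling 4 genes were higher, where 42.4% of all probe sets were called in either direction. Between xylem and phloem 4 were lower in xylem (ATG8B, ATG8E, ATG8F and ATG8G), where 28.5% of all probe sets were and 42.4% were called in either direction. None was higher with limma, where 13.9% of all probe sets were, and ATG3 was at an unadjusted p under 0.05. The median difference was -0.500, against -0.15 over all probe sets. After median centring 3 genes were lower in xylem (ATG8B, ATG8E and ATG8G) and 3 higher (ATG8D, ATG8H and ATG3), so the balance of this pair depends on the scaling. The 3 comparisons share arrays and are not independent.

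Scaling shifted the arrays as a whole. For xylem minus cortex the median over all probe sets, -0.14 as deposited, was 0.29 with median centring and -0.76 with spike-in scaling. For phloem minus cortex -0.03 became -0.20 and -0.41, and for xylem minus phloem -0.15 became 0.46 and -0.33. Of 14 calls among the ATG genes, 7 held under all 18 alternatives. These were ATG8D in xylem and in phloem over cortex, ATG8B and ATG8C in phloem over cortex, and ATG8B, ATG8E and ATG8G as lower in xylem than in phloem.

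**Figure D3:**
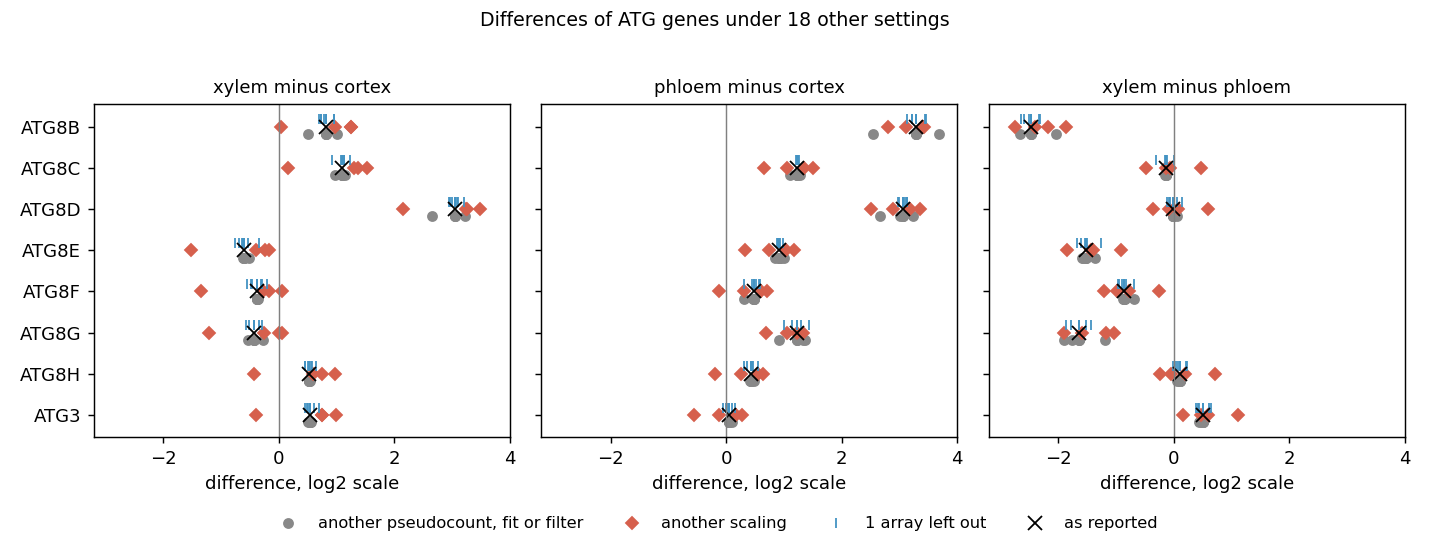
Differences of the 8 ATG genes on the log2 scale as reported (crosses) and under 18 alternatives: another pseudocount, fit or filter (grey), another scaling (red) or 1 array left out (blue). The red points spread furthest for xylem minus cortex, where ATG8H runs from -0.43 to 0.97, while ATG8D stays between 2.15 and 3.49.

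The other genes of the pathway were read from lists of 65 genes by role, of which 27 had a probe set listed with 1 gene and 19 of these lie outside the set above. All 9 ATG8 genes were measured when ATG8A (AT4G21980) and ATG8I (AT3G15580) are added, which the array annotation lists under the symbols APG8A and APG8H. ATG8A resembled ATG8D. Its intensity was 1827, 1259 and 1133 in xylem, 2327 and 2149 in phloem, and 345, 337 and 267 in cortex. No arrays of different populations overlapped. ATG8A was higher than in cortex by 2.08 (SE 0.20; adjusted p = 4.65e-05) in xylem and by 2.77 (SE 0.23; adjusted p = 4.31e-05) in phloem. It was lower in xylem than in phloem by -0.69 (SE 0.23; adjusted p = 0.0356), a call lost under 8 alternatives, median centring among them (-0.08). ATG8I, of the same branch as ATG8H, had intensities of 1761, 1709 and 1468 in xylem, 2134 and 2235 in phloem, and 1398, 1307 and 1196 in cortex. The populations did not overlap. It was higher in phloem than in cortex by 0.74 (SE 0.16; adjusted p = 0.00878), a call lost without phloem replicate 2 (adjusted p = 0.0661) and under spike-in scaling (0.13). Its difference was 0.33 (SE 0.14) for xylem against cortex and -0.41 (SE 0.16) for xylem against phloem, and neither passed. The former passed in opposite directions under median centring (0.77) and spike-in scaling (-0.63). The latter passed under spike-in scaling (-0.76) and turned to 0.20 under median centring.

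Of the 9 ATG8 genes, 7 were thus higher in phloem than in cortex and 0 lower with limma (8 and 0 at an unadjusted p under 0.05), with a median of 1.22, where 12.2% of all probe sets were higher. The calls of ATG8E, ATG8G and ATG8I among them were lost under some alternatives, as given above. In xylem 5 were higher than in cortex and 0 lower (6 and 1 unadjusted), with a median of 0.53, where 13.5% of all probe sets were higher. Of these calls, those of ATG8B, ATG8C and ATG8H were lost under some alternatives. Between xylem and phloem 5 were lower in xylem and 0 higher (6 lower and 0 higher unadjusted), with a median of -0.69, where 28.5% of all probe sets were lower. Here the calls of ATG8A and ATG8F were lost under some alternatives. In the conjugation list, 3 of 9 genes were measured, ATG3 and the loci AT3G59950 and AT5G50230, and in xylem all 3 exceeded cortex, with a median of 0.55, where 13.5% of all probe sets were higher. These calls were close to the threshold for AT3G59950 (adjusted p = 0.0490) and for ATG3, which turned to -0.40 under spike-in scaling. Results of the alternatives were not read out for AT3G59950 or for AT5G50230, so it is not known whether these calls hold under them. Between phloem and cortex they differed by -0.08 to 0.05, and 0 of the 3 passed with limma, adjusted or at an unadjusted p under 0.05.

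ATG101 (AT5G66930), a subunit of the kinase complex that starts autophagosome formation, had intensities of 491, 429 and 311 in xylem, 512 and 414 in phloem, and 276, 268 and 207 in cortex. All vascular arrays stood above all cortex arrays. It was higher than in cortex by 0.67 (SE 0.21; adjusted p = 0.0283) in xylem and by 0.85 (SE 0.23; adjusted p = 0.0244) in phloem, calls lost under 5 and 6 alternatives. The xylem difference turned to -0.26 under spike-in scaling. Of 8 genes listed for this complex, 6 were measured. In xylem 3 were higher than in cortex and 0 lower, where 13.5% and 29.1% of all probe sets were. In phloem 1 (ATG101) was higher than in cortex and 1 (AT2G37840, -0.92) lower, where 12.2% and 14.8% were. Between xylem and phloem 3 were higher and 1 lower in xylem, where 13.9% and 28.5% were. These counts were not tested against the shares. RAPTOR1 (AT3G08850) is a partner of the kinase TOR, which holds autophagy down. It differed from cortex by -0.10 (SE 0.16) in xylem and -0.22 (SE 0.17) in phloem. Between xylem and phloem it differed by 0.12 (SE 0.17). None of these passed. Under spike-in scaling it passed as lower than in cortex, by -1.01 in xylem and -0.81 in phloem. Under median centring it passed as higher in xylem than in phloem, by 0.73.

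The vacuolar processing enzymes, proteases of the compartment that receives autophagic cargo, differed in direction. Their list of 7 vacuolar proteases had 5 measured genes, with the locus AT4G01610 beside these enzymes. AT4G01610 averaged 207 in xylem, 1620 in phloem and 3146 in cortex, and was lower in xylem than in cortex by -3.89. ALPHA-VPE (AT2G25940) had intensities of 605, 849 and 580 in xylem, 20.6 and 15.7 in phloem, and 3.42, 18.3 and 10.3 in cortex, and was higher in xylem by 4.72 (SE 0.26; adjusted p = 1.38e-06) than in cortex and by 4.33 (SE 0.29; adjusted p = 6.95e-06) than in phloem. Its phloem and cortex signals lay below the array medians and are not shown to exceed background, so these sizes depend on the pseudocount: against cortex the difference was 6.08 with a pseudocount of 1 and 3.30 with 64, and against phloem 5.14 and 3.16. BETA-VPE (AT1G62710) was highest in phloem. Its intensity was 79.8, 60.3 and 60.7 in xylem, 255 and 226 in phloem, and 30.9, 47.6 and 49.2 in cortex. It was higher in phloem than in cortex by 2.14 (SE 0.23; adjusted p = 0.000205) and lower in xylem than in phloem by -1.64 (SE 0.23; adjusted p = 0.000512). GAMMA-VPE (AT4G32940) was lower in phloem than in cortex by -0.75 (SE 0.19; adjusted p = 0.0197), a call lost under 3 alternatives. DELTA-VPE (AT3G20210) was dim, with differences of 0.22 in xylem and 0.12 in phloem from cortex and of 0.102 between xylem and phloem. None passed. Under median centring it passed as higher in xylem, by 0.65 than in cortex and by 0.71 than in phloem.

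**Figure D4:**
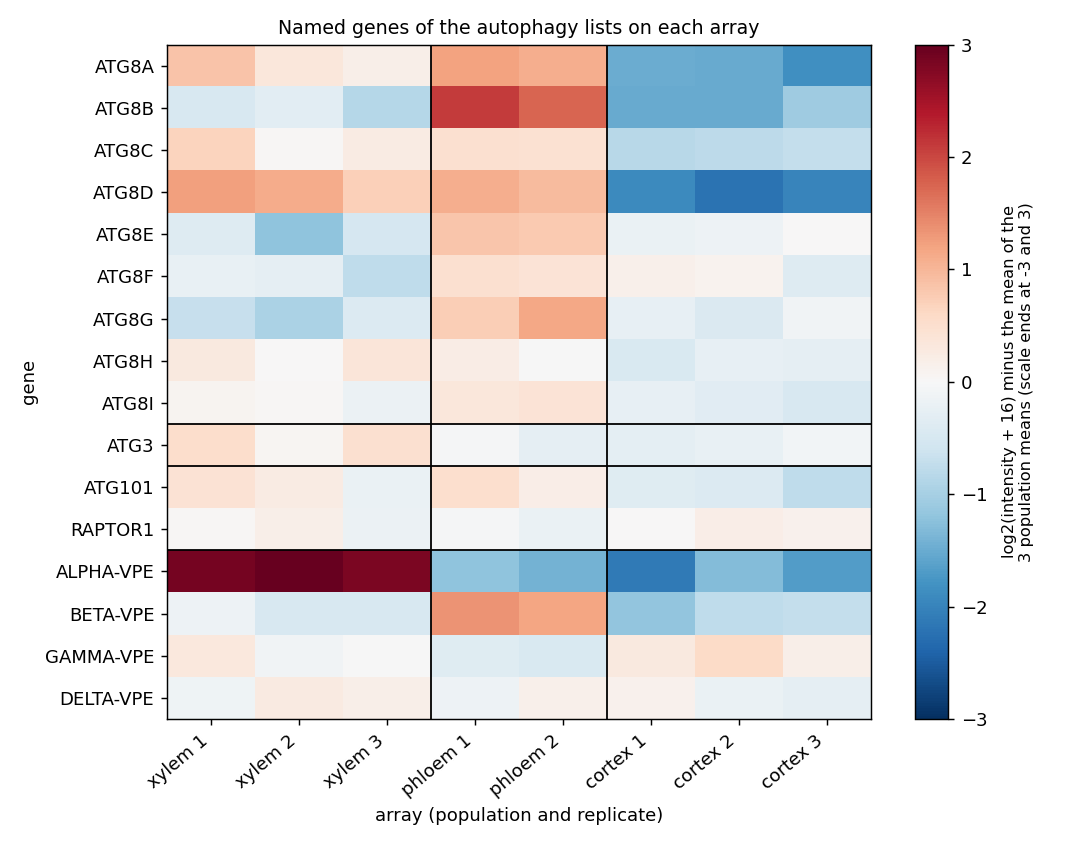
Level of the named genes of the autophagy lists on each array, as log2(intensity + 16) minus the mean of the 3 population means (red above, blue below), with columns for xylem, phloem and cortex replicates. ATG8A and ATG8D are red in both vascular populations and blue in cortex, ATG8B and BETA-VPE are red only in phloem, and ALPHA-VPE only in xylem.

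Of the measured genes on these lists, 11 loci carry only a locus tag in the annotation used here. They include the loci already counted by list above, such as AT3G59950 and AT5G50230, so those calls are counted again here. Between xylem and cortex 5 of them were higher and 1 lower in xylem, between phloem and cortex 1 was higher and 3 lower in phloem, and between xylem and phloem 6 were higher and 2 lower in xylem. The largest were AT3G61960, higher in xylem by 2.59 than in both cortex and phloem, AT4G01610, lower in xylem by -3.89 than in cortex and by -2.92 than in phloem, and AT1G77890, higher in xylem than in cortex by 1.67. AT3G61960 had intensities of 1519, 2072 and 1010 in xylem, 267 and 199.98 in phloem, and 237, 258 and 202 in cortex, with no overlap of xylem with the rest. Over all 19 genes outside the ATG set, 8 were higher and 1 lower in xylem than in cortex, 5 higher and 4 lower in phloem than in cortex, and 7 higher and 4 lower in xylem than in phloem. Over all probe sets 13.5%, 12.2% and 13.9% were higher in the population named first in these pairs, and 29.1%, 14.8% and 28.5% were lower. In either direction 42.6%, 27.0% and 42.4% were called. The counts were not tested against these shares, and nothing particular to the 19 genes or the 11 loci is read from them. The medians of the 19 genes were 0.33, 0.12 and 0.12, against -0.14, -0.03 and -0.15 over all probe sets.

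Genes with the most similar pattern were named by Pearson's r over the 8 arrays among 900 probe sets with a symbol that were brighter than the median. The r is given as a measure of likeness only, since the arrays fall into 3 populations. Closest to ATG8B were UBP16 (AT4G24560), a ubiquitin-specific protease, at 0.988, the calmodulin-like CML30 (AT2G15680) at 0.987 and LCR69 (AT2G02100), a small cysteine-rich protein, at 0.985. UBP16 averaged 304 in xylem, 1300 in phloem and 166 in cortex. Closest to ATG8D were IQD33 (AT5G35670), of a family of calmodulin-binding proteins, at 0.986, the E2 ubiquitin-conjugating enzyme UBC27 (AT5G50870) at 0.985 and the cystatin CYS1 (AT5G12140), an inhibitor of cysteine proteases, at 0.984. IQD33 averaged 867 in xylem, 929 in phloem and 2.45 in cortex, and CYS1 averaged 3303, 4286 and 715 in that order of populations. IQD33 and CYS1 were also among the 3 closest to ATG8C, at 0.978 and 0.971. Between the ATG genes themselves, r was 0.961 for ATG8C and ATG8D and 0.942 for ATG8E and ATG8G, and 0.01 for ATG8D and ATG8E.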

How the data were processed

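Per the submitters' processing notes, the deposited linear intensities, 1 per probe set and array, are MAS5 values made by the authors. Version, target value and scaling were not found in the labels or files. The table holds 22810 probe sets, of which 64 controls were left out, and files give no depth. Genes were named through the platform annotation and a RefSeq table of assembly TAIR10.1, which matched all 8 ATG probe sets. No coordinates are given, since no build is stated.

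Intensities were taken as log2(value + 16) and fitted with limma 3.58.1 (R 4.3.3) as 3 population means over the 8 arrays, moderated with an intensity trend (5 residual and 3.66 prior degrees of freedom). The script was tested on simulated data. Plots used Python 3.11.15 and matplotlib 3.10.9. Named genes were all ATG probe sets, the measured genes of the autophagy lists (the brightest probe set per gene) and, per ATG gene, the 3 most similar probe sets. The members and lists were chosen with earlier results of these data known. The 18 alternatives were other pseudocounts, scalings, moderation, filter, samples, a replicate block and each array left out.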

Additional observations from a re-analysis of the deposited data

How the results depend on the processing

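The number of ATG genes called was 5 for xylem against cortex, 5 for phloem against cortex and 4 for xylem against phloem. Leaving out 1 array gave 2 to 5, 3 to 5 and 3 to 5. The other alternatives gave 4 to 6 in each pair. These counts take both directions together, and the directions were less steady. Under spike-in scaling 1 gene was higher and 3 lower in xylem than in cortex, where 63.5% of all probe sets were called. Under median centring 3 were higher and 3 lower in xylem than in phloem, where 57.5% of all probe sets were called. Over all probe sets, 6140 were called for phloem against cortex, but 3606 without phloem replicate 2 and 9641 under spike-in scaling. Of 986 recomputed gene differences, 872 kept direction and side of the threshold, 47 lost and 30 gained a call in the same direction, and 37 turned direction, of which 3 also lost and 2 gained a call. The cause was not tested. Under spike-in scaling those that turned were, for xylem against cortex, ATG3 (-0.40), ATG8H (-0.43), ATG101 (-0.26), ATG8I (-0.63), BETA-VPE (-0.24) and DELTA-VPE (-0.31), for phloem against cortex, ATG3 (-0.55), ATG8F (-0.12), ATG8H (-0.18) and DELTA-VPE (-0.23), and for xylem against phloem, ATG8H (-0.24), DELTA-VPE (-0.0837) and RAPTOR1 (-0.21). Under median centring they were ATG8F (0.0577), ATG8G (0.00929), GAMMA-VPE (0.15) and RAPTOR1 (0.33) for xylem against cortex, ATG3 (-0.13) and DELTA-VPE (-0.0590) for phloem against cortex, and ATG8C (0.47), ATG8D (0.60), ATG8I (0.20) and ATG101 (0.42) for xylem against phloem. Quantile normalization turned ATG8G (0.0676) and RAPTOR1 (0.32) for xylem against cortex, DELTA-VPE (-0.00959) for phloem against cortex and ATG8H (-0.0396) for xylem against phloem. Trimmed-mean scaling turned RAPTOR1 (0.0989) for xylem against cortex and ATG8D (0.0755) for xylem against phloem. Leaving out an array turned some differences near 0. For phloem against cortex ATG3 ran from -0.0604 to 0.160 and DELTA-VPE from -0.0293 to 0.262. For xylem against phloem ATG8C ran from -0.31 to 0.00256, ATG8D from -0.114 to 0.14, ATG8H from -0.00899 to 0.230 and DELTA-VPE from -0.0433 to 0.248. Arrays of different populations share replicate numbers. Deviations of same-numbered arrays correlated at -0.10, -0.04 and 0.15 for xylem and cortex, at -0.001 and -0.03 for phloem and cortex and at 0.13 and 0.15 for xylem and phloem, and 2 of 6 xylem and cortex arrays correlated best with their own number, so the numbers were not taken to pair the arrays. With the replicate block the counts were again 5, 5 and 4, ATG8D turned to 0.0503 for xylem against phloem, and ATG8A had an adjusted p of 0.0504 there. Without detection calls, dim signals such as those of ATG8G and of ATG8B in cortex are not shown to exceed background.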

Other observations

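The nearest patterns of the remaining ATG genes over the 8 arrays differed between them. ATG3 was closest to the small heat shock protein gene ATHSP22.0 (AT4G10250) and to IQD26 (AT3G16490), both at r = 0.967, and to the co-chaperone gene Hop3 (AT4G12400) at 0.966. Their steps were far larger than that of ATG3: ATHSP22.0 averaged 856 in xylem, 78.8 in phloem and 44.7 in cortex. ATG8E was closest to sks15 (AT4G37160) at 0.996, a gene averaging 45.6 in xylem, 853 in phloem and 143 in cortex. ATG8G was closest to XERICO (AT2G04240), a RING-type protein gene, at 0.988, with averages of 348 in xylem, 706 in phloem and 435 in cortex, and next to bHLH104 (AT4G14410) at 0.968. ATG8H was closest to HWS (AT3G61590), an F-box protein gene, at 0.959. ATG8F was closest to the plastid gene ndhD at 0.972, and its next neighbours were lower, at 0.912.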
